A study of Mus musculus with 12 samples.

Results

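The cytochrome P450 (Cyp) genes were described in white fat of mice lacking C2orf74 (KO) and of wild-type (WT) mice. Members were protein-coding genes whose mouse symbol has the form Cyp, a number, a letter and a number, so Cyp51 was left out. Of 18640 protein-coding genes in the deposited tables, 88 matched this form. The 22 with at least 1 FPKM (fragments per kilobase of exon, scaled to library depth) in at least 3 of the 12 libraries are described here, and the other 66 are summarised. RNA was sequenced from 2 fat depots of each of 6 mice, 3 KO and 3 WT: the visceral depot beside the epididymis (epWAT) and subcutaneous fat (scWAT). This gave 4 groups of 3 libraries, KO epWAT, WT epWAT, KO scWAT and WT scWAT. All mice, KO and WT, ate a high-fat diet from 8 weeks of age for 12 weeks. The labels named neither the strain nor the kind of deletion, so whether it was confined to a tissue was not given in the sources used here. The mouse codes in the titles (C7, C34 and C695 for KO; C75, C85 and C99 for WT) recur across the depots and were taken to mark animals, and values below follow that order.

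Cytochrome P450 enzymes are heme proteins that insert an oxygen atom into a substrate, with electrons passed on from P450 oxidoreductase, encoded by Por, for those in the endoplasmic reticulum and from ferredoxin for those in mitochondria. The families differ in substrates: some act on solvents, drugs and pollutants, some on arachidonate and other fatty acids, and some on sterols, vitamin D and retinoic acid. In liver they are abundant and carry much of drug metabolism, while fat expresses members that act on fatty acids, retinoids and oxysterols, in adipocytes and in the stromal and immune cells around them.

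Recovered depths were 15011093 to 18311564 reads per library. The mature adipocyte markers were abundant in all 12 libraries (12 genes, summed 7474 to 16289 FPKM). Some libraries stood apart. Epididymis and germ cell markers summed to 396.8 FPKM in KO epWAT C7 and to at most 9.41 FPKM elsewhere, neutrophil markers to 102.4 FPKM in the same library and at most 17.3 FPKM elsewhere, and B, T and NK cell markers to 249.2 FPKM in KO scWAT C695 and at most 17.2 FPKM elsewhere. Hepatocyte markers were highest in WT epWAT C85, with a sum of 85.7 FPKM, against 7.47 to 46.7 FPKM elsewhere. The targeted gene, taken as mouse 1700093K21Rik, had 1 read over the KO epWAT libraries and 7 over WT epWAT, and 2 reads over KO scWAT and 20 over WT scWAT, so it checks the genotype labels only weakly.

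The promoters of the 4 members with the largest ratios of KO to WT means in epWAT (Cyp1a1, Cyp2e1, Cyp2f2 and Cyp26b1) are shown so that their start regions can be read beside the values below. Each is 300 bases from RefSeq on GRCm38.p6, 250 before the RefSeq start and 50 after it, in the direction of transcription; RefSeq entries were found for 17 of the 22 members. The Cyp2e1 window is chr7:140763569-140763868 (plus strand), the Cyp2f2 window chr7:27119705-27120004 (plus), the Cyp1a1 window chr9:57697363-57697662 (plus) and the Cyp26b1 window chr6:84593761-84594060 (minus). Capitals mark each match to the motifs named after the sequences, of which the TATA box was searched on the gene's own strand and the rest on both strands.
Cyp2e1: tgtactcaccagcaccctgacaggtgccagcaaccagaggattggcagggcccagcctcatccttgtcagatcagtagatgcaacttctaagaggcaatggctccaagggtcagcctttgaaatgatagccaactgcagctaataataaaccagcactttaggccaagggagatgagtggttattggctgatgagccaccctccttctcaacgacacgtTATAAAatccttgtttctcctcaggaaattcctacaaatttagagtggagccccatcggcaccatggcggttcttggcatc
Cyp2f2: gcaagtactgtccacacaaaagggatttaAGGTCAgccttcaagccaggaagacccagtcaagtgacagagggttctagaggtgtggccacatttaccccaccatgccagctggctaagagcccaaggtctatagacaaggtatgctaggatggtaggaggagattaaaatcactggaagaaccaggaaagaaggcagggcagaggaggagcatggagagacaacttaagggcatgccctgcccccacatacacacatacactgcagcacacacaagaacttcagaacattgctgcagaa
Cyp1a1: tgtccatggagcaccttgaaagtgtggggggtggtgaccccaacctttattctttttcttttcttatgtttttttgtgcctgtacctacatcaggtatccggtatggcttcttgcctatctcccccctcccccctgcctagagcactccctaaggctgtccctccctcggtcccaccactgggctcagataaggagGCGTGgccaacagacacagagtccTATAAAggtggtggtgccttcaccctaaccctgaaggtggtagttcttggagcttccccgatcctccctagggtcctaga
Cyp26b1: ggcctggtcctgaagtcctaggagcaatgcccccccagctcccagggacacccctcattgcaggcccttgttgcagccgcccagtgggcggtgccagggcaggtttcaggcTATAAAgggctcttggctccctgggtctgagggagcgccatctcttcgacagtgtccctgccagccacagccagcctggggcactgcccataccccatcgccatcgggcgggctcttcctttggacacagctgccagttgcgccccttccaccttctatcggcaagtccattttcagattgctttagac
TATAAA, the TATA box letters, begins 31 bases before the start in Cyp2e1, 30 before it in Cyp1a1 and 139 before it in Cyp26b1, and is absent from the Cyp2f2 window. Of 32817 mouse promoters of this length, 8.32% hold it. GCGTG, the core bound by the aryl hydrocarbon receptor, begins 54 bases before the start of Cyp1a1 and is held by 32.4% of promoters. AGGTCA, a nuclear receptor half-site, begins 221 bases before the start of Cyp2f2 and is held by 16.3%. GTTAAT, a half-site of HNF1, is in none of the 4 windows and in 7.1% of promoters. A match describes the window and is not evidence of binding, and a missing match says only that these letters are not in it.

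FPKM is scaled to exon length, so levels can be set side by side between genes. Cyp2e1 was the most abundant described P450 transcript in every library. Its mean over the 12 libraries was 434 FPKM, followed by Cyp4b1 at 37.9, Cyp4v3 at 28.6, Cyp27a1 at 25.7, Cyp20a1 at 14.5 and Cyp2d22 at 13.6 FPKM. Cyp1b1, Cyp4f17, Cyp2j6, Cyp4f13 and Cyp4f16 averaged 6.23 to 9.47 FPKM, Cyp2f2, Cyp2j9 and Cyp4f18 3.34 to 4.64 FPKM, and Cyp2r1, Cyp26b1, Cyp39a1, Cyp2u1, Cyp4f39, Cyp2c23, Cyp2s1 and Cyp1a1 0.582 to 1.57 FPKM. The members differed widely in how much they varied. The highest library was 170-fold above the lowest for Cyp2f2, 50.7-fold for Cyp1a1, 25.5-fold for Cyp2s1, 21.9-fold for Cyp2c23 and 21-fold for Cyp2e1, and at most 9.65-fold for the other 17. Cyp20a1 (1.31-fold) and Cyp2j6 (1.34-fold) varied least.

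**Figure D1:**
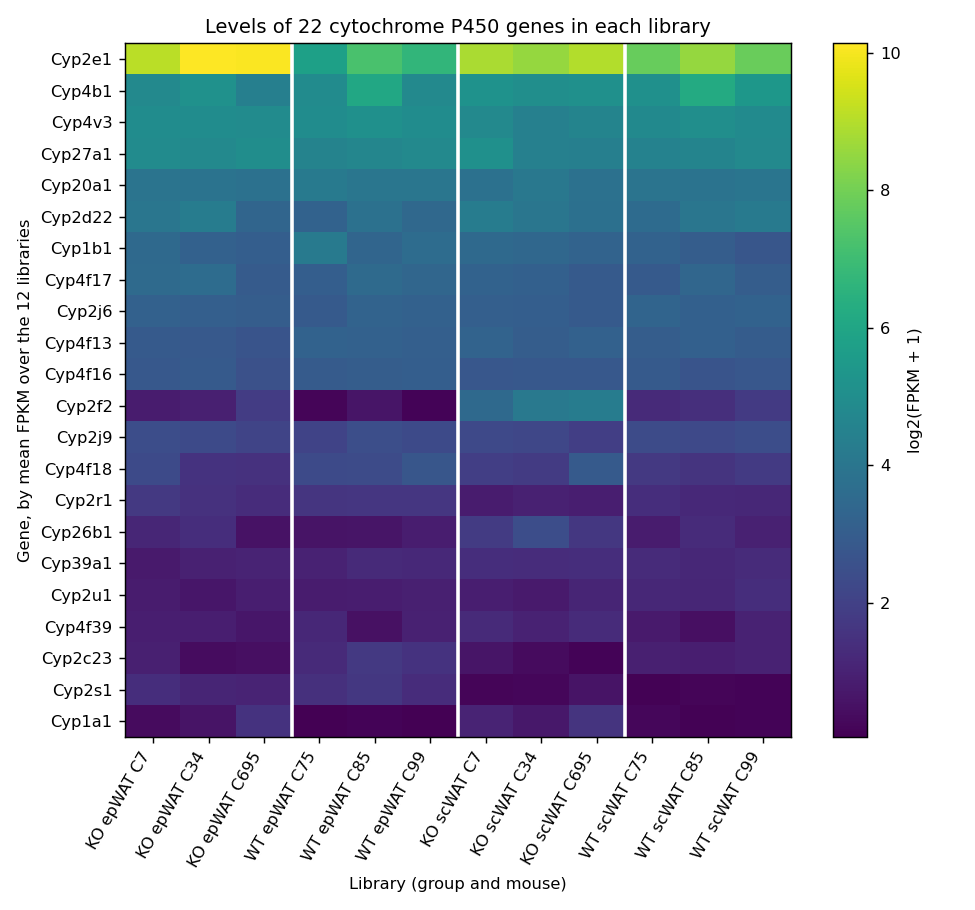
Level of each described P450 gene (rows, ordered by mean over the 12 libraries) in each library (columns, named by group and mouse), as log2(FPKM + 1) on the colour scale. Cyp2e1 is the brightest row in all 12 libraries, and Cyp2f2 is bright only in the 3 KO scWAT columns.

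The share of Cyp2e1 among the P450 transcripts was higher in KO fat of both depots. Cyp2e1 made up 75.7%, 86.2% and 87.7% of the summed FPKM of the 22 members in KO epWAT, against 23.8%, 41.2% and 37.4% in WT epWAT. The shares were 70.3%, 68.2% and 73.9% in KO scWAT, against 57.7%, 64.1% and 55.6% in WT scWAT. All KO libraries were above all WT libraries of the same depot, but the shares were not tested. In scWAT Cyp2e1 itself overlapped, with 373 FPKM in KO C34 and 375 FPKM in WT C85. The other members summed to 174.3 FPKM in KO scWAT C34 and 210 FPKM in WT scWAT C85. The other 21 members together stayed in a narrow band, 150.7 to 216.4 FPKM over all 12 libraries, whose ends were KO epWAT C695 and WT epWAT C85.

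KO and WT epWAT were compared by limma on log2(FPKM + 1) over 12722 genes with at least 1 FPKM in at least 3 of the 6 libraries, and a gene was called when its Benjamini-Hochberg adjusted p was under 0.05. None of the 17 members tested was called higher or lower. This says little about the members, because 0% of all genes were called higher and 0% lower, although 3795 genes had an unadjusted p under 0.05; limma-voom on the recovered reads called no gene either. Cyp2e1 had the smallest adjusted p among the members (0.0553), and 5 members had an unadjusted p under 0.05. Of the 17, 5 differences were positive and 12 negative, with a median of -0.18 on the log2 scale beside -0.10 over all genes tested. The KO values of Cyp2e1 lay above all WT values, a pattern that 9.6% of all genes showed, and those of Cyp2c23, Cyp4f13, Cyp4f16 and Cyp20a1 lay below all WT values, which 29.2% of all genes did. Of the 5 members not tested in epWAT, Cyp2f2 and Cyp1a1 also lay above all WT values. With the mouse as a random effect over all 12 libraries, a replicate block, 3 of 17 members were called (Cyp2e1, Cyp2c23 and Cyp4f13), beside 14.6% of all genes.

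In scWAT 1 of the 19 members tested was called among 12614 genes, Cyp2f2, which rose. For all genes, 0.0476% were called higher and 0.27% lower by limma with Benjamini-Hochberg adjustment. Of the 19, 11 differences were positive and 8 negative, with a median of 0.02 beside 0.01 over all genes. The 3 KO values lay above the 3 WT values for Cyp2f2, Cyp26b1, Cyp1b1, Cyp4f18 and Cyp39a1 among those tested, against 11.1% of all genes, and for the untested Cyp1a1 and Cyp2s1. They lay below for Cyp2r1, Cyp4v3, Cyp2u1 and Cyp2j6 among those tested, against 13.4% of all genes, and for the untested Cyp2c23. Thus Cyp1a1 and Cyp2f2 were above WT in both depots and Cyp2c23 below WT in both. Cyp1a1 reached the level for description through KO libraries only (1 epWAT and 2 scWAT) and Cyp2c23 through WT libraries only (3 epWAT and 1 scWAT), so their direction is partly fixed by how they were chosen and is given as a description. Cyp2r1 passed the scWAT filter through WT libraries only, so the same holds for it in scWAT.

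**Figure D2:**
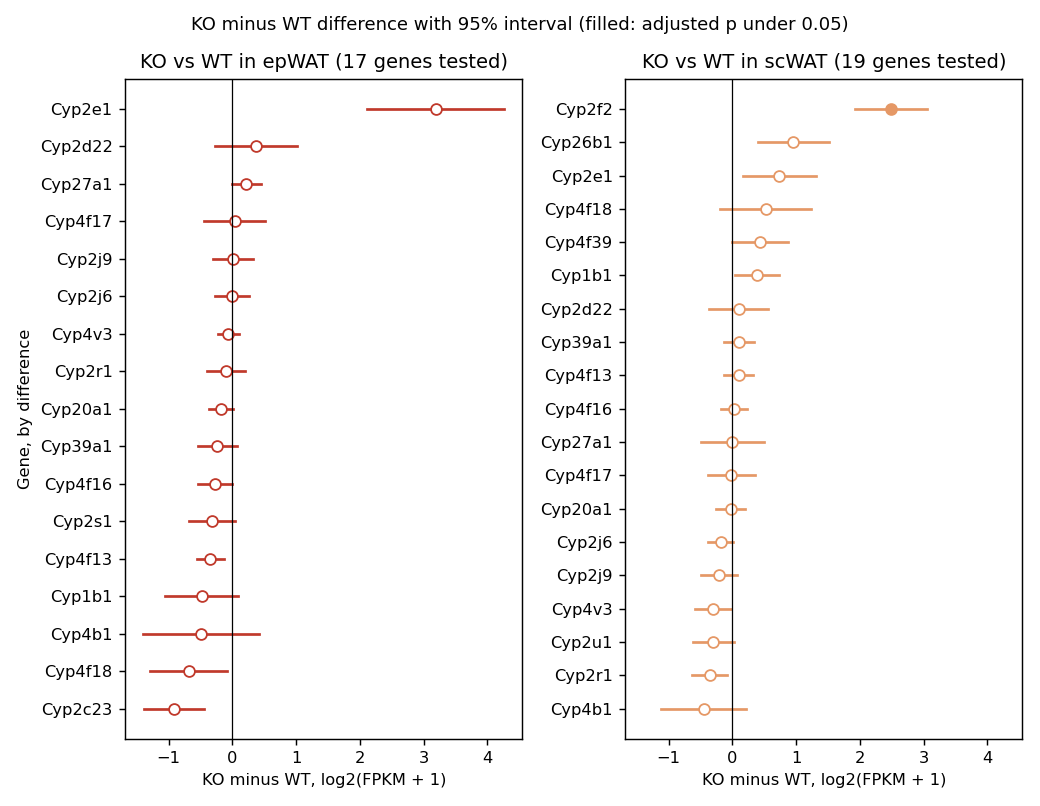
KO minus WT difference in log2(FPKM + 1) of each tested member in epWAT (left, 17 genes) and scWAT (right, 19 genes), with limma's 95% interval; a filled point has an adjusted p under 0.05. Cyp2e1 in epWAT (3.19) and Cyp2f2 in scWAT (2.49) stand far to the right, and only Cyp2f2 in scWAT is filled.

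Cyp2e1 (ENSMUSG00000025479; chromosome 7, 140763739 to 140774987 in GRCm38, plus strand) encodes an enzyme that oxidises ethanol, acetone, fatty acids and many small solvents, and is induced in liver by fasting and obesity. It had 544, 1123 and 1075 FPKM in KO epWAT, against 53.4, 152 and 103 FPKM in WT epWAT. In scWAT it had 460, 373 and 501 FPKM in KO and 219, 375 and 225 FPKM in WT. In epWAT the lowest KO library was well above the highest WT library, while in scWAT WT C85 was level with KO C34, so the groups overlapped. Means were 914 ± 322 FPKM in KO epWAT and 103 ± 49.1 FPKM in WT epWAT (SD, n = 3), an 8.9-fold ratio. The difference of 3.19 ± 0.44 (SE) on the log2 scale did not pass the test (limma adjusted p = 0.0553). In scWAT it averaged 445 ± 65.2 FPKM in KO mice and 273 ± 88.7 FPKM in WT mice, with a difference of 0.74 ± 0.23 (limma adjusted p = 0.2).

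The call on Cyp2e1 in epWAT differed between fits. Without KO epWAT C7, the library with epididymis, germ cell and neutrophil transcripts, the difference was 3.53 (limma adjusted p = 0.0247), in a fit that called 14.3% of all genes, and it was 2.79 to 3.53 when any other single library was left out (adjusted p = 0.104 to 0.21). Under the replicate block the limma adjusted p was 0.00515. Cell type markers moved too, though none was called. Over all 12722 genes tested in epWAT, 4275 differences were positive and 8447 negative. Mature adipocyte markers had positive differences for 11 of 12 genes in epWAT (median 0.65), with Cfd the largest at 1.78. They summed to 11362 to 15823 FPKM in KO and 7474 to 9774 FPKM in WT, and none of these markers was at 0 in any library. Macrophage markers had negative differences for 13 of 14 genes (median -1.18; summed 401.9 to 944.9 FPKM in KO and 1369 to 1915 in WT). Fewer cells of a type and less RNA per cell cannot be told apart in such bulk samples, and the part of these shifts in the Cyp2e1 difference was not tested. Cyp2e1 is also an abundant liver transcript, and hepatocyte markers summed to 8.29 to 25.3 FPKM in KO epWAT and 7.83 to 85.7 FPKM in WT epWAT; their part in the difference was not tested.

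Cyp2f2 (ENSMUSG00000052974; chromosome 7, 27119909 to 27133660, plus strand) encodes the enzyme that activates naphthalene in the club cells of mouse lung. It had 10.4, 16.3 and 18.4 FPKM in KO scWAT, against 1.37, 1.65 and 2.44 FPKM in WT scWAT, and 0.776, 0.942 and 2.57 FPKM in KO epWAT, against 0.139, 0.562 and 0.108 FPKM in WT epWAT. Every KO library was above every WT library of its depot, and KO scWAT was above all other libraries. It rose in KO scWAT (difference 2.49 ± 0.23 SE; limma adjusted p = 0.0358), an 8.26-fold ratio of means. This call was lost when any single scWAT library except KO C695 was left out (limma adjusted p = 0.0976 to 0.182), while the difference stayed positive. In epWAT it was too low for the test: 137 reads in the 3 KO libraries and 29 in the 3 WT libraries gave, after scaling to depth, 5.18 times as many in KO (95% exact interval 3.45 to 8.02, counting error only), with an exact two-sided permutation p of 0.1, the smallest that 3 against 3 allows. Gm15883, an antisense gene over 6194 bases of Cyp2f2, reached at most 0.305 FPKM, and the strand setting of the counts was not given in the sources used here.

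**Figure D3:**
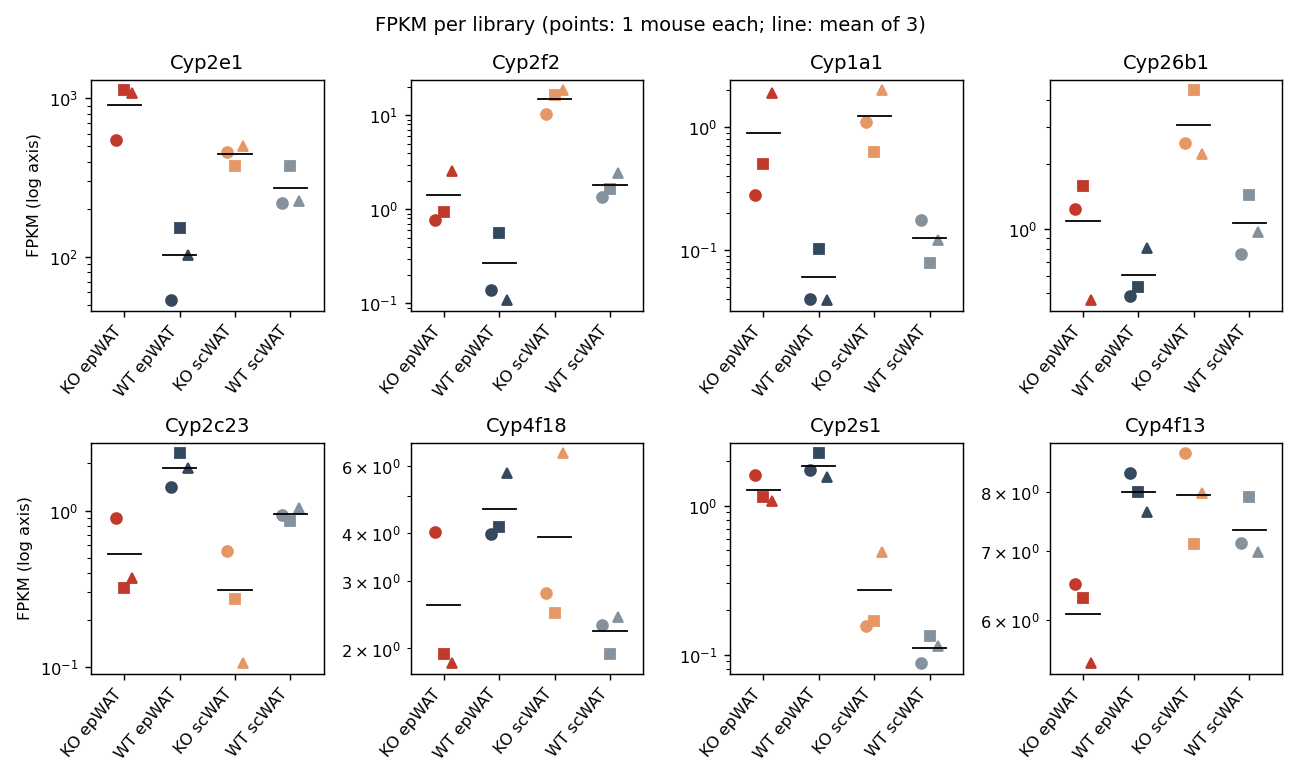
FPKM (log axis) of 8 P450 genes in each library; points are single mice (circles, squares and triangles for C7, C34 and C695 in KO groups and for C75, C85 and C99 in WT groups), and lines are means of 3. Cyp2e1, Cyp2f2 and Cyp1a1 lie higher in KO epWAT than in WT epWAT without overlap, and Cyp2c23 lies lower in KO in both depots.

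Among further members that act on foreign compounds, none of Cyp4b1, Cyp2d22 and Cyp2s1 was called between genotypes where tested. Cyp4b1, which hydroxylates fatty acids and activates some plant toxins, had 26.7, 35.0 and 20.3 FPKM in KO epWAT, against 29.5, 67.5 and 26.9 FPKM in WT epWAT, and 35.4, 31.9 and 34 FPKM in KO scWAT, against 33.2, 73.8 and 40.8 FPKM in WT scWAT. Mouse C85 was the highest in both depots, and the genotypes overlapped in both (differences -0.49 and -0.45; limma adjusted p = 0.416 and 0.467). Cyp2d22, the only Cyp2d gene above the level, ranged from 9.06 to 18.4 FPKM in KO epWAT and 8.41 to 12.9 FPKM in WT epWAT, and from 12.7 to 18.8 FPKM in KO scWAT and 11.1 to 17.0 FPKM in WT scWAT. Cyp2s1, an extrahepatic enzyme of barrier epithelia, had 1.61, 1.15 and 1.07 FPKM in KO epWAT, against 1.73, 2.24 and 1.55 FPKM in WT epWAT, and 0.156, 0.167 and 0.487 FPKM in KO scWAT, against 0.0875, 0.133 and 0.114 FPKM in WT scWAT. The epWAT groups overlapped (difference -0.32; limma adjusted p = 0.202), and in scWAT all KO libraries were above WT at very low levels. There 69 KO and 29 WT reads gave a ratio of 2.42 (95% exact interval 1.55 to 3.88, counting error only). The exact two-sided permutation p was 0.1, and 42 of the KO reads came from C695, the library with lymphocyte transcripts.

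Cyp1a1 and Cyp1b1 are the textbook targets of the aryl hydrocarbon receptor. Cyp1a1 (ENSMUSG00000032315; chromosome 9, 57687928 to 57703824, plus strand) had 0.282, 0.498 and 1.91 FPKM in KO epWAT, against 0.0405, 0.102 and 0.0393 FPKM in WT epWAT, and 1.11, 0.632 and 1.99 FPKM in KO scWAT, against 0.177, 0.0784 and 0.121 FPKM in WT scWAT. All 6 KO libraries were above all 6 WT libraries, and mouse C695 was the highest in both depots. The gene was too low for limma within either depot. The reads were 13, 24 and 80 in KO epWAT against 2, 5 and 2 in WT epWAT, a depth-scaled ratio of 14.3 (95% exact interval 7.26 to 31.9), and 52, 30 and 97 in KO scWAT against 8, 4 and 6 in WT scWAT, a ratio of 10.1 (6.23 to 17.5). These ratios are a description, since the gene was above the level only in KO libraries. Their intervals cover counting error only and not the spread between mice.

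Cyp1b1 did not share this pattern. It ranged from 7.46 to 10.2 FPKM in KO epWAT and 9.17 to 17.7 FPKM in WT epWAT (difference -0.48 ± 0.24 SE; limma adjusted p = 0.227), with overlap. In scWAT it ranged from 8.51 to 10.2 FPKM in KO and 5.65 to 8.45 FPKM in WT, without overlap (0.38 ± 0.14; limma adjusted p = 0.254). Ahr, the receptor gene itself, differed by -0.06 in epWAT and 0.10 in scWAT (limma adjusted p = 0.785 and 0.815). Tiparp, another target, had 16.6, 19.0 and 15.9 FPKM in KO epWAT, against 11.6, 12.5 and 11.6 FPKM in WT epWAT, without overlap (0.49 ± 0.09; limma adjusted p = 0.066), and differed by 0.02 in scWAT. Ahrr, a repressor of the receptor and also a target, was too low for the test, with 0.0642 ± 0.0305 FPKM in KO epWAT and 0.138 ± 0.0473 FPKM in WT epWAT, and 0.0906 ± 0.0368 FPKM in KO scWAT and 0.0731 ± 0.00477 FPKM in WT scWAT (SD, n = 3), with overlap in both depots. Nqo1, a further target, lay above WT in epWAT (0.51; limma adjusted p = 0.0871) and overlapped in scWAT (0.03).

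Among the members that act on arachidonate and other fatty acids, Cyp2c23 was below WT in both depots. This epoxygenase gene (ENSMUSG00000025197; chromosome 19, 44005022 to 44029208, minus strand) is best known from kidney. It had 0.896, 0.322 and 0.37 FPKM in KO epWAT, against 1.41, 2.32 and 1.88 FPKM in WT epWAT, and 0.551, 0.272 and 0.106 FPKM in KO scWAT, against 0.944, 0.86 and 1.04 FPKM in WT scWAT. The highest KO library was below the lowest WT library in each depot. The gene entered the epWAT test through its WT libraries alone. The epWAT difference was -0.92 ± 0.20 (SE; limma adjusted p = 0.0667), and was called under 3 of the alternatives, among them without KO C7 (-1.08; limma adjusted p = 0.0247). In scWAT 34 KO and 107 WT reads gave a ratio of 0.324 (95% exact interval 0.213 to 0.48, counting error only).

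The Cyp2j genes encode further epoxygenases. Cyp2j6 ranged from 7.19 to 8.19 FPKM in KO epWAT and 6.59 to 8.60 FPKM in WT epWAT, and from 6.61 to 7.58 FPKM in KO scWAT and 7.97 to 8.81 FPKM in WT scWAT, the last pair without overlap (difference -0.19; limma adjusted p = 0.322). Cyp2j9 ranged from 3.39 to 4.42 FPKM in KO epWAT and 3.26 to 4.54 FPKM in WT epWAT, and from 2.80 to 3.90 FPKM in KO scWAT and 3.88 to 4.36 FPKM in WT scWAT, with overlap in both depots. Neither gene passed the test in either depot.

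Cyp4f18 encodes the enzyme that inactivates leukotriene B4 in mouse leukocytes. It had 4.04, 1.93 and 1.83 FPKM in KO epWAT, against 3.99, 4.17 and 5.76 FPKM in WT epWAT, and 2.79, 2.47 and 6.48 FPKM in KO scWAT, against 2.30, 1.94 and 2.42 FPKM in WT scWAT. The high KO libraries were epWAT C7, with the highest sum of neutrophil markers, and scWAT C695, with the highest sum of B, T and NK markers. In KO scWAT C695, though, neutrophil markers summed to 5.94 FPKM, the lowest of KO scWAT. Macrophage markers there summed to 287.9 FPKM, the lowest of all libraries. The epWAT difference was -0.69 ± 0.25 (SE; limma adjusted p = 0.133), and -0.96 without C7 (limma adjusted p = 0.0257); the scWAT difference was 0.52 ± 0.29 (limma adjusted p = 0.428), and 0.17 without C695. Macrophage markers were also low in KO epWAT, as given above. Their sum was highest in WT epWAT C75 (1915 FPKM), where Cyp4f18 was at 3.99 FPKM, the lowest of WT epWAT. The part of these cell types in the differences was not tested. Zfp961 overlaps 5311 bases of Cyp4f18 on the opposite strand and reached 3.25 FPKM, so reads of these genes could be mixed if counting ignored strand.

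The remaining Cyp4f genes were Cyp4f13, Cyp4f16, Cyp4f17 and Cyp4f39. Cyp4f13 ranged from 5.44 to 6.51 FPKM in KO epWAT and 7.65 to 8.35 FPKM in WT epWAT, without overlap (-0.35 ± 0.09 SE; limma adjusted p = 0.0729; 0.0302 with the spread shared over 12 libraries and 0.0304 under the replicate block), and from 7.11 to 8.73 FPKM in KO scWAT and 6.99 to 7.92 FPKM in WT scWAT. Cyp4f16 ranged from 4.84 to 6.44 FPKM in KO epWAT and 6.81 to 7.31 FPKM in WT epWAT, again without overlap (-0.27; limma adjusted p = 0.157), and from 6.01 to 6.11 FPKM in KO scWAT and 5.43 to 6.55 FPKM in WT scWAT. Cyp4f17 ranged from 6.81 to 11.2 FPKM in KO epWAT and 7.43 to 10.5 FPKM in WT epWAT, and from 6.53 to 8.35 FPKM in KO scWAT and 6.49 to 9.52 FPKM in WT scWAT. Cyp4f39, the counterpart of the human gene for a skin ceramide hydroxylase, ranged from 0.583 to 0.869 FPKM in KO epWAT and 0.427 to 1.27 FPKM in WT epWAT, and from 1.03 to 1.47 FPKM in KO scWAT and 0.376 to 1.05 FPKM in WT scWAT, a 1.81-fold ratio of means with overlap. None of the Cyp4f genes passed the test between genotypes where tested, and Cyp4f39 was too low for the test in epWAT. Whole reads could not be recovered for Cyp4f13, Cyp4f16, Cyp4f17, Cyp4f39, Cyp2d22 and Cyp1b1, so they are given in FPKM without read counts.

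Cyp4v3, the counterpart of human CYP4V2, a fatty acid hydroxylase linked to a retinal dystrophy, had 29.7, 30.3 and 29.5 FPKM in KO epWAT, against 30.2, 33.3 and 30.3 FPKM in WT epWAT, and 27.2, 20.7 and 23.5 FPKM in KO scWAT, against 27.6, 31.9 and 28.8 FPKM in WT scWAT. The scWAT groups did not overlap, by a narrow gap (-0.30 ± 0.11 SE; limma adjusted p = 0.256), and the epWAT groups overlapped. Cyp2u1, which hydroxylates long-chain fatty acids, ranged from 0.585 to 0.851 FPKM in KO epWAT and 0.754 to 0.93 FPKM in WT epWAT, and from 0.706 to 1.14 FPKM in KO scWAT and 1.20 to 1.58 FPKM in WT scWAT (scWAT difference -0.30; limma adjusted p = 0.32). In epWAT 185 KO and 234 WT reads gave a ratio of 0.867 (95% exact interval 0.711 to 1.06, counting error only).

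The sterol, vitamin D and retinoid enzymes followed. Cyp27a1, the mitochondrial sterol 27-hydroxylase, had 29.5, 27.0 and 31.2 FPKM in KO epWAT, against 22.9, 24.8 and 27.2 FPKM in WT epWAT, and 33.3, 20.6 and 20.1 FPKM in KO scWAT, against 22, 23.1 and 27.0 FPKM in WT scWAT. The groups overlapped in both depots, barely in epWAT (0.22 ± 0.09 SE; limma adjusted p = 0.172). Cyp39a1, an oxysterol 7-alpha-hydroxylase, ranged from 0.732 to 1.07 FPKM in KO epWAT and 1.04 to 1.38 FPKM in WT epWAT, and from 1.5 to 1.6 FPKM in KO scWAT and 1.25 to 1.48 FPKM in WT scWAT, the last without overlap (0.10; limma adjusted p = 0.652). Cyp2r1, the main vitamin D 25-hydroxylase, had 2.34, 1.83 and 1.54 FPKM in KO epWAT, against 2.03, 2.10 and 2.17 FPKM in WT epWAT, and 0.759, 0.972 and 0.866 FPKM in KO scWAT, against 1.58, 1.34 and 1.25 FPKM in WT scWAT. It overlapped in epWAT and lay below WT in scWAT (-0.36 ± 0.11; limma adjusted p = 0.198). Cyp2r1 entered the scWAT test through its WT libraries alone, so its direction there is partly fixed by the filter.

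Cyp26b1 (ENSMUSG00000063415; chromosome 6, 84571414 to 84593908, minus strand), which degrades retinoic acid, ranged from 2.24 to 4.44 FPKM in KO scWAT and 0.762 to 1.44 FPKM in WT scWAT. These groups did not overlap, and the difference of 0.96 ± 0.23 (SE) did not pass the test (limma adjusted p = 0.134). In epWAT it ranged from 0.461 to 1.58 FPKM in KO and 0.485 to 0.808 FPKM in WT, with the KO library C695 the lowest of all. There 292 KO and 175 WT reads gave a ratio of 1.83 (95% exact interval 1.51 to 2.22), and the exact two-sided permutation p was 0.4, so the counting interval did not carry over to the spread between mice. Stromal and progenitor markers summed to 536.3 to 1950 FPKM in KO scWAT and 793.6 to 988 FPKM in WT scWAT. Both that sum and Cyp26b1 were highest in KO scWAT C34. In KO scWAT C695 the sum was 536.3 FPKM, below all WT scWAT libraries, while Cyp26b1 was at 2.24 FPKM, above all of them. The part of stromal and progenitor cells in the difference was not tested. Aldh1a2, which makes retinoic acid, lay below WT in both depots, with means of 6.78 ± 3.07 FPKM in KO epWAT and 14.7 ± 4.11 in WT epWAT, and 1.16 ± 0.318 FPKM in KO scWAT and 3.26 ± 0.721 in WT scWAT (SD, n = 3; limma adjusted p = 0.103 and 0.0866). Cyp20a1, an enzyme with no known substrate, had 14.3, 14.0 and 13.2 FPKM in KO epWAT, against 17.2, 15.1 and 15.1 FPKM in WT epWAT, and 13.1, 15.9 and 13.1 FPKM in KO scWAT, against 14.2, 13.9 and 14.8 FPKM in WT scWAT. Its epWAT groups did not overlap (-0.18; limma adjusted p = 0.193), and its scWAT groups did.

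A dependence of the genotype difference on depot was tested over all 12 libraries, as the KO minus WT difference of scWAT less that of epWAT. None of the 22 members was called, against 0.586% of 13487 genes called higher and 0.445% lower by limma with Benjamini-Hochberg adjustment. An unadjusted limma p under 0.05 was found for 6 of the 22 members and for 3294 of the 13487 genes, a similar share. For Cyp2e1 the value was -2.45 ± 0.55 (SE; limma adjusted p = 0.0633), for Cyp2f2 1.61 ± 0.41 (0.0784), for Cyp4f13 0.44 ± 0.12 (0.0877), for Cyp1b1 0.86 ± 0.30 (0.126) and for Cyp4f18 1.21 ± 0.42 (0.127), with limma adjusted p in parentheses. Without KO epWAT C7 the value of Cyp2e1 passed the test (limma adjusted p = 0.0242), as did 6.93% of all genes. Without C7 and KO scWAT C695 together, Cyp2e1 and Cyp4f18 passed, Cyp4f18 at 1.13 (limma adjusted p = 0.0154), 2 of 21 members tested beside 11.2% of all genes.

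The depots of WT mice differed in 6 of 19 members tested, 2 higher and 4 lower in scWAT than in epWAT, beside 7.49% of 12760 genes called higher and 14.9% lower by limma with Benjamini-Hochberg adjustment. Cyp2f2 (1.15 ± 0.20 SE; limma adjusted p = 0.0113) and Cyp2e1 (1.48 ± 0.40; 0.0421) were higher. Cyp2s1 (-1.35 ± 0.13; limma adjusted p = 0.00393), Cyp4f18 (-0.80 ± 0.13; 0.0108), Cyp2r1 (-0.38 ± 0.09; 0.0286) and Cyp2c23 (-0.55 ± 0.14; 0.0329) were lower. The Cyp2s1 mean was 0.111 ± 0.0227 FPKM in WT scWAT and 1.84 ± 0.355 FPKM in WT epWAT, with no overlap. Mesothelial markers, of cells that cover the visceral pads, summed to 0.702 to 1.13 FPKM in WT scWAT and 18.6 to 107.7 FPKM in WT epWAT, and macrophage markers to 529.2 to 635 FPKM in WT scWAT and 1369 to 1915 FPKM in WT epWAT; their part in these depot differences was not tested. Cyp2s1 entered this comparison only through epWAT, where 3 WT libraries reached 1 FPKM, and Cyp2f2 only through scWAT, again by 3 libraries, so their direction is partly fixed by the filter. With the mouse as a replicate block, Cyp1b1 and Cyp2d22 were called too, 8 of 19 members beside 29.8% of all genes. When any single WT library was left out, 2 to 4 of 17 or 18 members tested were called, beside 10.1% to 18.6% of all genes. Cyp4f18 was called each time, Cyp2s1 and Cyp2f2 in each of the 3 fits in which they were still tested, and Cyp2e1 was called only without WT epWAT C85 (limma adjusted p = 0.0652 to 0.117 without any other library).

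In KO mice 1 of 20 members tested was called between depots, Cyp2f2, higher in scWAT (2.76 ± 0.32 SE; limma adjusted p = 0.0255), beside 0.285% of 12623 genes called higher and 0.428% lower. This call was lost when any single KO library except epWAT C695 was left out (limma adjusted p = 0.0662 to 0.143). The order of the depots was turned round for Cyp2e1. It averaged 445 ± 65.2 FPKM in KO scWAT and 914 ± 322 FPKM in KO epWAT (SD, n = 3), a difference of -0.98 ± 0.30 that did not pass the test (limma adjusted p = 0.237), while WT mice averaged 273 ± 88.7 FPKM in scWAT and 103 ± 49.1 FPKM in epWAT. In KO mice all scWAT values were below all epWAT values, and in WT mice all were above. Cyp2s1 was low in KO scWAT (0.27 ± 0.188 FPKM, against 1.28 ± 0.296 FPKM in KO epWAT; limma adjusted p = 0.107). It entered this comparison too only through epWAT, so its direction is partly fixed by the filter. These depot comparisons share their libraries with the genotype comparisons above.

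**Figure D4:**
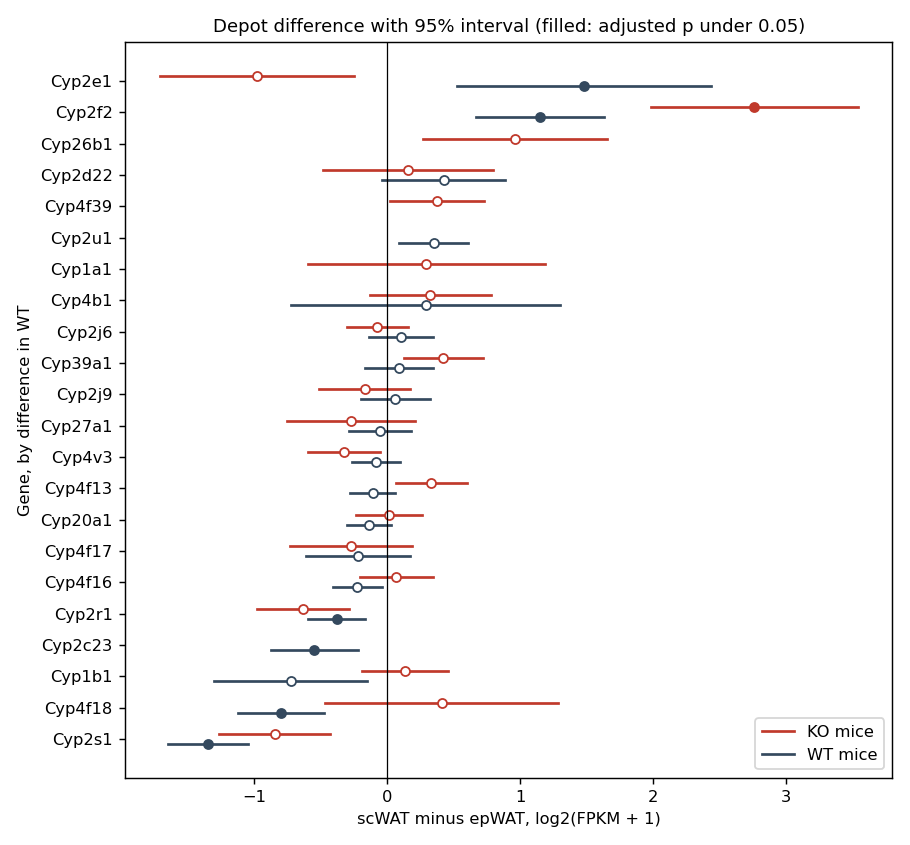
scWAT minus epWAT difference in log2(FPKM + 1) for each tested member in KO mice (red) and WT mice (blue), with limma's 95% interval; a filled point has an adjusted p under 0.05. Cyp2e1 lies to the left of zero in KO mice (-0.98) and to the right in WT mice (1.48), and Cyp2f2 lies to the right in both (2.76 and 1.15).

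The genes that serve P450 enzymes were counted by list. Of 18 redox partner and heme genes tested in epWAT, none was called between KO and WT (10 positive and 8 negative, median 0.05 beside -0.10 for all genes), and none of 18 in scWAT (9 and 9, median -0.03 beside 0.01). Por had 96.4, 97.6 and 142 FPKM in KO epWAT, against 68.0, 76.7 and 71.9 FPKM in WT epWAT, without overlap (0.60 ± 0.16 SE; limma adjusted p = 0.0786), and differed by 0.30 in scWAT with overlap. Cyb5a, which can pass an electron to P450 enzymes, differed by 0.32 and 0.06 (limma adjusted p = 0.304 and 0.787). Cyb5b, the mitochondrial outer membrane form, had 100, 110 and 120 FPKM in KO scWAT, against 199, 174 and 169 FPKM in WT scWAT, and 166, 175 and 170 FPKM in KO epWAT, against 180, 169 and 169 FPKM in WT epWAT. Its KO difference depended on the depot (-0.69 ± 0.12, limma adjusted p = 0.0388), lying at -0.71 in scWAT and -0.02 in epWAT. This call was lost under the mouse as a replicate block (limma adjusted p = 0.0619), a fit that called 0 of 13487 genes.

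None of the other pathway lists held a gene called between KO and WT in either depot. This says little about any of the lists, because 0% of all genes were called in epWAT, and 0.0476% higher and 0.27% lower in scWAT. Over all genes tested, 4275 differences were positive and 8447 negative in epWAT (median -0.10), and 6584 and 6030 in scWAT (0.01). In epWAT the counts of positive and negative differences were 6 and 8 of 14 receptors and regulators (median -0.05), 12 and 8 of 20 epoxide, aldehyde and conjugating enzymes (0.17), 3 and 4 of 7 retinoid genes (-0.05), 4 and 7 of 11 oxysterol, steroid and vitamin D genes (-0.06) and 6 and 6 of 12 arachidonate genes (-0.02). In scWAT they were 11 and 4 of 15 (0.10), 9 and 10 of 19 (-0.02), 4 and 3 of 7 (0.01), 5 and 6 of 11 (-0.01) and 3 and 8 of 11 (-0.16), in the same order of lists. Alox15, a 12/15-lipoxygenase gene, had 12.8, 4.15 and 6 FPKM in KO epWAT, against 0.322, 0.417 and 0.268 FPKM in WT epWAT, and 0.605, 0.862 and 0.583 FPKM in KO scWAT, against 0.0503, 0.312 and 0.801 FPKM in WT scWAT. The epWAT groups were far apart (2.57 ± 0.34 SE, limma adjusted p = 0.0553). The dependence on depot was called (-2.26 ± 0.44, limma adjusted p = 0.0455), but not under the replicate block (limma adjusted p = 0.0695), where no gene at all was called. Alox15 entered both tests only through its KO epWAT libraries, so its direction is partly fixed by the filter. Ephx1, the microsomal epoxide hydrolase, averaged 47.0 ± 11.8 FPKM in KO epWAT and 87.9 ± 3.46 in WT epWAT, and 31.5 ± 8.38 FPKM in KO scWAT and 50 ± 0.274 in WT scWAT, without overlap in either (limma adjusted p = 0.0667 and 0.171). Gsta4, a glutathione transferase for lipid aldehydes, lay above WT in both depots (1.60 and 0.90; limma adjusted p = 0.0667 and 0.131).

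Between the depots of WT mice, where 7.49% of all genes were called higher and 14.9% lower in scWAT, the lists were counted by limma with Benjamini-Hochberg adjustment. Called higher and lower were 4 and 2 of 18 redox and heme genes, 1 and 1 of 14 receptors and regulators, 5 and 4 of 20 conjugating enzymes, 0 and 3 of 7 retinoid genes, 3 and 3 of 12 steroid genes and 0 and 4 of 11 arachidonate genes. Higher in scWAT were Por (0.57), Alas1 (0.36), Alad (0.38) and Urod (0.24) of the redox and heme list, Ppara (0.47) of the receptors, Aldh2 (0.66), Aldh1a7 (0.43), Fmo1 (1.05), Gsta4 (1.32) and Nqo1 (0.42) of the conjugating list, and Akr1c18 (2.32), Hsd11b1 (0.80) and Hsd17b10 (0.39) of the steroid list. Among those lower in scWAT were Hmox1 (-0.80), Cyb5r1 (-0.38), Nfe2l2 (-0.39), Ephx1 (-0.80), Gstm1 (-1.01), Ugt1a7c (-0.85), Aldh1a2 (-1.87), Dhrs9 (-2.35), Dhrs3 (-0.48), Stard3 (-0.72), Star (-0.47), Srd5a3 (-0.50), Alox5ap (-1.10), Hpgds (-1.83), Ptgis (-1.44) and Tbxas1 (-1.51). Akr1c18 entered this comparison only through scWAT (2.9 to 6.84 FPKM in WT scWAT, against 0.0907 to 0.234 FPKM in WT epWAT). Its direction is therefore partly fixed by the filter. When 1 library was left out, Hmox1 was called in 0 of 6 fits, Urod and Ppara in 1 of 6, and Alad, Aldh1a7 and Dhrs3 in 2 of 6. Fmo1 and Hsd17b10 were called in 3 of 6, and Star in 1 of the 3 in which it was tested. Star thus only just reached the filter, which may partly fix its direction too. In KO mice Gstm1 alone among these lists was called (-0.97; limma adjusted p = 0.0429). That call was lost under the replicate block (limma adjusted p = 0.111) and whichever library was left out (0.1 to 0.183).

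The P450-fold genes that the symbol rule leaves out gave no call between genotypes. Cyp51, the lanosterol demethylase of cholesterol synthesis, had 12.3, 10.9 and 10.3 FPKM in KO epWAT, against 15.4, 14.5 and 15.9 FPKM in WT epWAT, and 4.72, 7.06 and 8.60 FPKM in KO scWAT, against 11.3, 11.1 and 10.1 FPKM in WT scWAT. KO was below WT without overlap in both depots (-0.42 and -0.64; limma adjusted p = 0.0667 and 0.181). Tbxas1, thromboxane synthase of macrophages and platelets, differed by -1.37 in epWAT without overlap (limma adjusted p = 0.0667) and by -0.20 in scWAT. Ptgis, prostacyclin synthase, overlapped in both depots.

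Most P450 genes were barely detected in fat, several of them as whole genomic clusters. Members within 1000000 bases of a neighbour were joined on GRCm38. The cluster of 13 Cyp2c genes on chromosome 19 (39007019 to 40187333) had no described member and reached at most 0.948 FPKM, and the cluster of 5 Cyp3a genes on chromosome 5 had none either. On chromosome 7 (25802475 to 27158668), 12 members of the Cyp2a, Cyp2b, Cyp2f, Cyp2g, Cyp2s and Cyp2t subfamilies lay together, and Cyp2s1 and Cyp2f2 were described while the other 10 reached at most 1.34 FPKM. The 8 Cyp2d genes on chromosome 15 (82370527 to 82794294) held Cyp2d22 alone, with the others at most 2.07 FPKM. The 8 Cyp4f genes on chromosome 17 (32452723 to 32947402) held 4 described members, with the others at most 0.45 FPKM, and the 7 Cyp2j genes on chromosome 4 (96027534 to 96664154) held 2. Close copies within these clusters can share reads, and how the authors assigned such reads was not given in the sources used here.

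Of the 66 genes under the level, 63 never reached 1 FPKM, 5 of them were at 0 in every library, and 3 reached it in 1 library. These were Cyp2b10 at 1.34 FPKM in KO epWAT C34, and Cyp2d9 at 2.07 and Cyp2d26 at 1.69 FPKM in WT epWAT C85. Just inside the level Cyp1a1 had a third-highest library of 1.11 FPKM, and just outside it Cyp2ab1 had 0.852 FPKM. Of the 61 detected low genes, 25 were highest in WT epWAT C85, the library in which all 6 hepatocyte markers were highest as well (Alb 47.8 FPKM, against 4.09 to 30.6 FPKM elsewhere), and 12 in KO epWAT C7. The 66 genes summed to 3.73 to 7.61 FPKM in KO epWAT, 4.55 to 17.5 FPKM in WT epWAT, 3.41 to 9.34 FPKM in KO scWAT and 3.57 to 5.38 FPKM in WT scWAT. Cyp7a1, the bile acid enzyme of hepatocytes, was at 0.218 FPKM in WT epWAT C85, 0.027 FPKM in WT epWAT C75 and 0 in the other 10 libraries. The part of liver transcripts in the low genes was not tested. The steroid-making members were also low: Cyp11a1 reached at most 0.334 FPKM (WT scWAT C75), Cyp17a1 0.669 FPKM (KO epWAT C7, the library with epididymis and germ cell transcripts) and Cyp19a1, aromatase, 0.0134 FPKM.

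**Figure D5:**
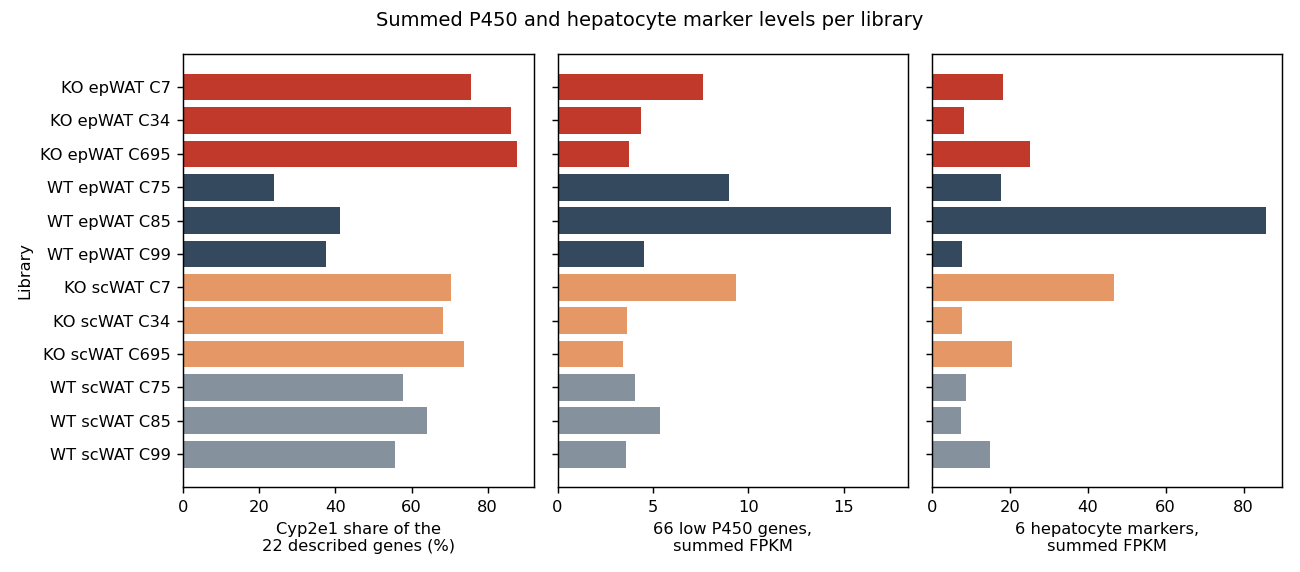
Per library, the share of Cyp2e1 in the summed FPKM of the 22 described members (left, percent), the summed FPKM of the 66 low P450 genes (middle) and the summed FPKM of 6 hepatocyte markers (right); bars start at 0 and are coloured by group. The Cyp2e1 share is highest in KO epWAT (75.7% to 87.7%), and WT epWAT C85 has the longest bar in the middle (17.5 FPKM) and right (85.7 FPKM) panels.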

How the data were processed

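The deposited values were FPKM per Ensembl gene, 1 table per library with 32622 genes; this unit was worked out from how the numbers behave, and mm9 was named in the submitters' processing notes. Aligner, counter, annotation and whether strand was used: not given in the sources used here. Per the labels' protocols, RNA was extracted with Trizol and made into libraries by the usual Illumina procedure. Reads were recovered as FPKM times exon length (GENCODE M21, built on GRCm38) times a depth fitted per library, and were whole within 0.01 for 92.4% of genes in all libraries, so coordinates are those of GRCm38; 32553 identifiers matched and 69 did not. Reads are given only for members that came out whole (16 of 22), and intervals on them cover counting error only.

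Because the files held FPKM and not counts, the test was limma-trend on log2(FPKM + 1), applied to genes reaching 1 FPKM in 3 or more of the libraries compared; this scale understates changes of low genes. Benjamini-Hochberg adjustment covered all genes tested (threshold 0.05). KO was compared with WT within each depot, the depots within each genotype, and the dependence of the KO difference on depot over all 12 libraries. Members below the filter in a genotype comparison were compared by reads where these were whole, so Cyp4f39 in epWAT was not compared. The members and lists were chosen with earlier results of these data known. By the naming rule, every library's value is given for members past a threshold, members without overlap in the same direction in both depots and the 5 most abundant; other described members are given by group ranges, and pathway genes are named where they passed a test, with Por, Cyb5a, Ahr, Cyp51, Ptgis and Tbxas1. Tiparp, Nqo1, Ahrr, Ephx1, Gsta4, Aldh1a2 and Alox15 in the genotype comparisons were named after their values were seen.

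Pairs of libraries come from the same animals. The departure of each gene from its group mean had, between a mouse's epWAT and scWAT, a correlation of -0.03 (C7), 0.17 (C34), 0.11 (C695), 0.36 (C75), 0.32 (C85) and 0.26 (C99), against at most 0.06 between different mice. Fits with the mouse as a replicate block were therefore run; mice are nested in genotype, so within a depot the mouse entered as a random effect. Other alternatives were testing all genes, a minimum of 5 FPKM, a pseudocount of 0.1 or of 5, upper-quartile scaling (over genes tested), quantile scaling, a spread shared over 12 libraries, limma-voom on recovered reads (rounded where not whole) and leaving out libraries. Upper-quartile scaling with the mouse block was added after seeing the data. The procedure was tested on simulated data. Models ran in R 4.3.3 (limma 3.58.1 with statmod 1.5.0), and tables and plots in Python 3.11.15 with numpy 2.4.6, pandas 2.3.3, matplotlib 3.10.9 and scipy 1.17.1. One result on a pathway gene is not reported here.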

Additional observations from a re-analysis of the deposited data

Results flagged for a closer look

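The depot difference of Cyp2e1 went opposite ways in the genotypes. All KO scWAT values were below all KO epWAT values, and all WT scWAT values were above all WT epWAT values. The difference between these depot differences was -2.45 on the log2 scale and did not pass the test (limma adjusted p = 0.0633); it was -2.88 to -2.05 under the alternatives, 3 of 22 of which called it.

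A dependence of the KO difference on depot was called for Alox15, at -2.26 (limma adjusted p = 0.0455), and for Cyb5b, at -0.69 (limma adjusted p = 0.0388). Alox15 was called in 2 of 17 alternatives and Cyb5b in 10 of 22, always with the same sign. In the 9 fits with libraries left out in which Alox15 was still tested, it was called in 0. Alox15 reached 1 FPKM only in KO epWAT libraries, so its direction is partly fixed by the filter.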

How the results depend on the processing

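Of 594 values of single members under the alternatives, over 41 member comparisons, 541 kept their direction and their side of the threshold, 33 lost a call, 20 gained a call and 0 changed direction. Only comparisons with an unadjusted p under 0.05 or groups without overlap in the main limma fit were followed. A change of direction was therefore unlikely from the start, and the other member comparisons are not covered. In epWAT, where 0 members were called between KO and WT, quantile scaling called 1 (Cyp2e1; limma adjusted p = 0.0413), and the spread shared over 12 libraries and the mouse as a random effect, a replicate block, called 3 each (Cyp2c23, Cyp2e1 and Cyp4f13); leaving out 1 library gave 0 to 3, with 3 without KO C7. Over all genes these fits called 90, 1820, 1856 and 1781. In scWAT, where 1 was called, no filter called 0, and leaving out 1 library gave 0 to 1, with 64 and 0 to 142 over all genes, against 40. For the dependence of the KO difference on depot, with 0 called, FPKM of at least 5 called 1 (Cyp2e1), a pseudocount of 5 called 1 (Cyp2f2), leaving out 1 library gave 0 to 1 (1 without KO epWAT C7), and leaving out KO epWAT C7 with KO scWAT C695 called 2; over all genes these fits called 177, 152, 0 to 928 and 1477, against 139. Between the depots of WT mice, with 6 called, no filter called 1 (Cyp2s1), FPKM of at least 5 called 1 (Cyp2e1, with fewer members tested), the replicate block 8, and leaving out 1 library 2 to 4; over all genes these fits called 1073, 2208, 3806 and 1272 to 2307, against 2852. Between the depots of KO mice, with 1 called, no filter called 0 and leaving out 1 library 0 to 1, with 79 and 7 to 36 over all genes, against 90. The cause of these changes was not tested, and the replicate block changed no member call other than those named. The median difference over all genes in epWAT was -0.10, and 0.02 after upper-quartile and 0.03 after quantile scaling.

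The smallest p of an exact permutation test with 3 mice per group is 0.1. Cyp1a1, Cyp2s1 in scWAT and Cyp2f2 in epWAT rest on few reads. A count of 3 reads was set as the floor, but counts under it, such as the 2 reads of Cyp1a1 in WT epWAT C75 and C99, were kept in the ratios. The log2(FPKM + 1) scale shrinks their differences.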
